A study of Rattus norvegicus with 11 samples.

Results

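The 10 genes Pdgfra, Cspg4, Olig1, Olig2, Sox10, Gpr17, Bcas1, Enpp6, Myrf and Tcf7l2 follow the oligodendrocyte lineage from the dividing precursor to the cell that starts to make myelin. They were chosen by name from the symbol column of the count table, all 10 were found among its 30560 genes, and all 10 passed the filter on low counts. RNA of the striatum was sequenced at day 3 from 11 adult male Sprague-Dawley rats, one library per rat. Intracerebral hemorrhage (ICH) was induced by injecting collagenase VII-S, a bacterial enzyme that opens vessel walls, into the striatum of the right side. IC (common ICH) rats received 0.2 U in 1.0 μL saline (n = 3, replicates 2, 3 and 4), and IS (severe ICH) rats received 0.6 U in 3.0 μL (n = 3, replicates 2, 3 and 4). IS-HA rats received the IS dose, and most of the hematoma was then withdrawn through a catheter at 6 h (n = 3, replicates 1, 2 and 3). The 2 Normal rats (replicates 1 and 3) had neither injection nor aspiration, so the effect of the needle and saline cannot be told apart from that of the hemorrhage. The tissue was the ipsilateral striatum, or the matching region in Normal rats, and each piece holds all cell types of that region.

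Oligodendrocyte precursors divide under platelet-derived growth factor (PDGF), leave the cell cycle, pass through a short committed stage and then either die or make myelin. Olig1, Olig2 and Sox10 are transcription factors kept through the whole lineage, whereas the PDGF receptor gene Pdgfra and the proteoglycan gene Cspg4 (NG2) are lost as cells differentiate. Gpr17, Bcas1 and Enpp6 mark committed precursors and newly formed oligodendrocytes, and Myrf and Tcf7l2 are transcription factors needed for the step to myelination. The striatum is crossed by myelinated fibre bundles, and precursors are spread through it in the adult.

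To place the genes whose level moved in one group or another, the 250 bases before the transcription start are shown for 3 of them, as RefSeq gives them on build GRCr8, 5′ to 3′ on the strand of the gene. Enpp6 lies on the minus strand of chromosome 16 (chr16:52026729-52026978), Olig2 on the plus strand of chromosome 11 (chr11:43961335-43961584) and Tcf7l2 on the plus strand of chromosome 1 (chr1:264791085-264791334). Capitals mark a match to the SOX motif ACAAAG, which reads CTTTGT on the opposite strand.
Enpp6: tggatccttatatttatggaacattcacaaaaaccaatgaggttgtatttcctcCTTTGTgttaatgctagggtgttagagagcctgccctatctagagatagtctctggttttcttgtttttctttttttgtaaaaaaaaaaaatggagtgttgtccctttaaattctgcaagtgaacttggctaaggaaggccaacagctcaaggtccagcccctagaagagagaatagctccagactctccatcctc
Olig2: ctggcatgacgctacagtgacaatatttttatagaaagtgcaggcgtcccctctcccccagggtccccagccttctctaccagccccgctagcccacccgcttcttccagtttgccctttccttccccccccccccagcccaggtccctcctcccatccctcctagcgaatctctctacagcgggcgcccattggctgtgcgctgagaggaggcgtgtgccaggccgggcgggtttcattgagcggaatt
Tcf7l2: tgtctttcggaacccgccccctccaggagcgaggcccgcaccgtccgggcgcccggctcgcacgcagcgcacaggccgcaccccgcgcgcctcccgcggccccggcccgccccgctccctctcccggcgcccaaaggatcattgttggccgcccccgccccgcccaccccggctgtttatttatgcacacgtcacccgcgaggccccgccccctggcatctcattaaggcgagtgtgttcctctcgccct
Promoters were found for 6 of the 10 genes (Pdgfra, Cspg4, Olig2, Gpr17, Enpp6 and Tcf7l2). ACAAAG, searched on both strands, was present in 1 of these 6, at bases 196 to 191 before the start of Enpp6, and in 16.3% of all 33469 promoters of the same length. The E-box CAGCTG, a sequence bound by basic helix-loop-helix factors such as the OLIG proteins, was in none of the 6 and in 12.0% of all promoters. The TCF/LEF motif ATCAAAG was likewise in none of the 6 and in 3.15% of all promoters. The GC content of the printed sequences was 40.0% for Enpp6, 62.0% for Olig2 and 73.6% for Tcf7l2. In the RefSeq gene table, 0 genes lie between the neighbours Olig1 and Olig2. The match is a description of letters and no measure of binding.

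Counts assigned to genes summed to between 6701301 and 18817645 per rat, with the smallest library in IS-HA replicate 2 and the next smallest, 7448205, in IS replicate 4. Levels are given as TPM, which divides counts by gene length and scales each rat to the same sum, and the 10 genes were counted between 27 (Enpp6) and 10150 (Bcas1) times in a rat. All 8 markers of striatal medium spiny neurons were detected in every rat, with summed levels of 6052 and 6464 TPM in Normal and 1309 to 5337 TPM in the injured rats. The 12 markers of microglia and macrophages summed to 408 and 576 TPM in Normal, 2674 to 3470 TPM in IC and 4619 to 5946 TPM in IS. Within IS-HA they summed to 3464 TPM in replicate 1, 5565 TPM in replicate 2 and 3667 TPM in replicate 3, so replicate 2 lay in the IS range and the others close to or within the IC range. Slc17a7, a gene of cortical excitatory neurons, ranged from 9.77 to 332 TPM over the 11 rats. In whole tissue, fewer cells of a type and less RNA per cell cannot be told apart. The part of tissue composition in the values below was not tested.

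The levels of the 10 genes differed by more than an order of magnitude. Olig1 and Bcas1 stood highest, with means over the 11 rats of 305 and 260 TPM, followed by Sox10 at 103, Myrf at 93.6 and Gpr17 at 91.5 TPM. Pdgfra averaged 40.9, Olig2 34.1, Cspg4 15.5, Tcf7l2 13.1 and Enpp6 8.38 TPM. Neighbours in this order overlapped in their range over the rats, except Bcas1 with Sox10 and Olig2 with Cspg4. Sox10 was the steadiest of the genes, with a ratio of 1.52 between the highest and the lowest rat, whereas Gpr17 spanned a ratio of 4.56, Enpp6 4.12 and Tcf7l2 5.08.

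**Figure D1:**
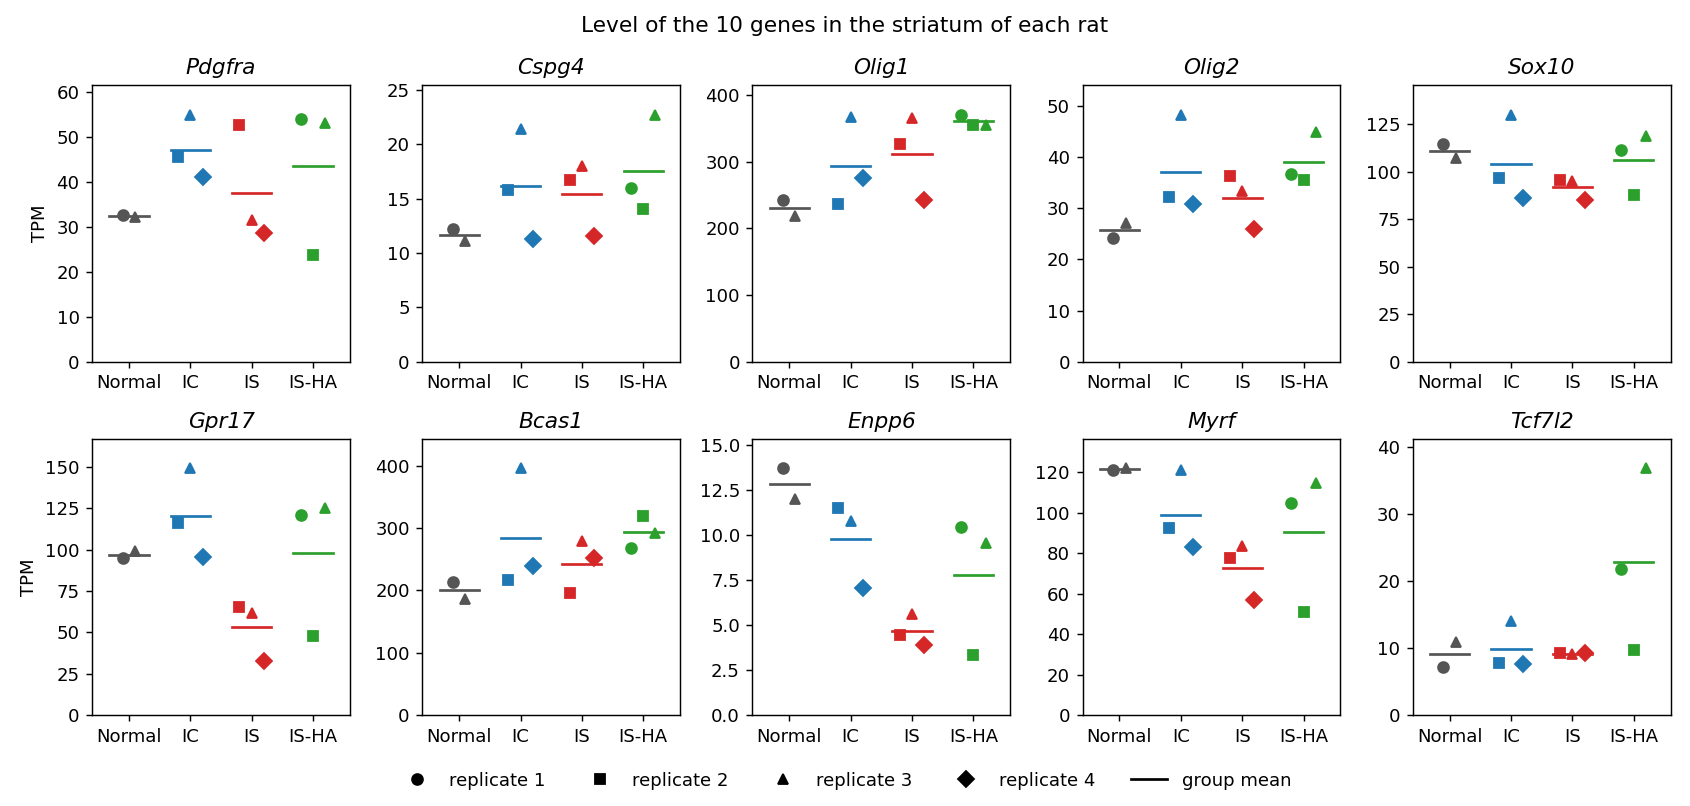
TPM (vertical axes, linear from 0) of the 10 genes in each of the 11 rats by group, with a symbol for each replicate number and a line for the group mean. Enpp6, Myrf, Gpr17 and Sox10 in the 3 IS rats lie below both Normal rats, and Tcf7l2 is highest in IS-HA replicates 1 and 3 at 21.8 and 36.8 TPM.

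In the comparison of severe hemorrhage with Normal, 3 genes of the committed and later stages were lower. Enpp6, Myrf and Gpr17 fell, by 1.45, 0.73 and 0.87 on the log2 scale, and the other 7 genes were not called in either direction. A gene is called here when the adjusted p of edgeR's quasi-likelihood test is under 0.05 over the 15742 genes tested. The 3 lower and 0 higher calls among 10 genes stand beside 24.2% of all tested genes called lower and 24.8% called higher in IS against Normal, so the share of members called lower is close to the background. With only 2 Normal rats, groups often separate fully in TPM. All IS rats lay below both Normal rats in 4 of the 10 genes (Enpp6, Myrf, Gpr17 and Sox10), beside 35.2% of all tested genes, and above them in 1 (Olig1), beside 37.2%. All IC rats lay above Normal in 3 (Pdgfra, Olig2 and Bcas1; 34.6% of tested genes) and below it in 2 (Enpp6 and Myrf; 25.1%). All IS-HA rats lay above Normal in 4 (Cspg4, Olig1, Olig2 and Bcas1; 33.3%) and below it in 2 (Enpp6 and Myrf; 23.5%). The shares of members separated from Normal are close to the background or below it.

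Enpp6 (ENSRNOG00000009660), a choline phosphodiesterase gene whose transcript marks newly forming oligodendrocytes, stood at 13.7 and 12.0 TPM in Normal replicates 1 and 3. It measured 11.5, 10.7 and 7.07 TPM in IC replicates 2, 3 and 4, and 4.44, 5.62 and 3.88 TPM in IS replicates 2, 3 and 4. In IS-HA replicates 1, 2 and 3 it measured 10.4, 3.32 and 9.55 TPM. Every IS rat lay below every IC and Normal rat, and IS-HA replicate 2 lay below all IS rats. The mean of IS was 0.362 times that of Normal, with a log2 fold change of -1.45 (SE 0.34, adjusted p = 0.00595). The IC against Normal difference of -0.46 (95% interval -1.20 to 0.27, adjusted p = 0.351) and the IS-HA against Normal difference of -0.78 (-1.53 to -0.04, adjusted p = 0.0975) were not called.

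Myrf (ENSRNOG00000028274), the membrane-bound transcription factor that switches on myelin genes, was nearly equal in the Normal rats at 121 and 122 TPM. IC replicates 2, 3 and 4 gave 92.4, 121 and 83.3 TPM, IS replicates 77.6, 83.9 and 57.1 TPM, and IS-HA replicates 1, 2 and 3 gave 105, 51.3 and 115 TPM. All IS rats lay below both Normal rats but overlapped with IC. Myrf fell by 0.73 on the log2 scale in IS against Normal (SE 0.24, adjusted p = 0.0272). The call was lost without Normal replicate 1, Normal replicate 3, IS replicate 2 or IS replicate 4, with adjusted p of 0.121, 0.0888, 0.0579 and 0.0832, and with library size alone as the scaling (adjusted p = 0.0902). In IC against Normal the difference was -0.36 (SE 0.24, adjusted p = 0.308), and in IS-HA against Normal -0.49 (SE 0.24, adjusted p = 0.140).

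Gpr17 (ENSRNOG00000065480), a receptor gene switched on in committed precursors and off again before myelination, measured 94.9 and 98.9 TPM in Normal. Levels of 116, 149 and 95.5 TPM were found in IC replicates 2, 3 and 4. Levels in IS replicates 2, 3 and 4, which are other animals, were 65.3, 61.5 and 32.7 TPM. IS-HA replicates 1 and 3 were at 121 and 125 TPM, and replicate 2 was at 47.7 TPM. The IS rats did not overlap with Normal or IC, whereas the IS-HA rats lay on both sides of Normal. The log2 fold change was -0.87 in IS against Normal (SE 0.32, adjusted p = 0.0411). This call was lost without Normal replicate 1 or 3, IC replicate 2 or 4, or IS replicate 4, with adjusted p of 0.136, 0.127, 0.0555, 0.0536 and 0.119, and with library size alone as the scaling (adjusted p = 0.109). Gpr17 differed from Normal by 0.24 in IC (SE 0.32, adjusted p = 0.624) and by -0.05 in IS-HA (SE 0.32, adjusted p = 0.904).

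Bcas1 (ENSRNOG00000012906), the remaining gene of the committed and early myelinating stage, did not share this pattern. It stood at 214 and 186 TPM in Normal, 217, 396 and 239 TPM in IC replicates 2, 3 and 4, and 196, 279 and 252 TPM in IS replicates 2, 3 and 4. In IS-HA it was at 267, 319 and 293 TPM, with all rats above Normal and replicate 2 the highest. The log2 fold change against Normal was 0.30 in IS (95% interval -0.35 to 0.95, adjusted p = 0.424) and 0.56 in IS-HA (-0.10 to 1.21, adjusted p = 0.168). Within a rat, the ratio of Gpr17 to Bcas1 TPM was 0.444 and 0.530 in Normal and 0.533, 0.376 and 0.400 in IC replicates 2, 3 and 4. It was 0.334, 0.221 and 0.130 in IS, and 0.451, 0.149 and 0.426 in IS-HA replicates 1, 2 and 3. The ratio of Gpr17 to Myrf overlapped between Normal (0.783 and 0.810) and IS (0.842, 0.733 and 0.573). Neither ratio carries a test.

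The precursor receptors were not called in any of the 6 comparisons. Pdgfra (ENSRNOG00000002244), which encodes the receptor through which PDGF drives precursor division, was at 32.5 and 32.3 TPM in Normal, at 45.5, 54.9 and 41.0 TPM in IC and at 52.7, 31.5 and 28.5 TPM in IS replicates 2, 3 and 4. It reached 54.0 and 53.1 TPM in IS-HA replicates 1 and 3 and was lowest of all rats, 23.8 TPM, in replicate 2. All IC rats lay above Normal, while IS and IS-HA rats lay on both sides of it. The log2 fold change was 0.48 in IC (95% interval -0.13 to 1.08, adjusted p = 0.239), 0.21 in IS (-0.39 to 0.81, adjusted p = 0.542) and 0.37 in IS-HA (-0.23 to 0.97, adjusted p = 0.311).

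Cspg4 (ENSRNOG00000017208), the NG2 proteoglycan gene of precursors, was at 12.2 and 11.1 TPM in Normal and between 11.3 and 22.7 TPM in the 9 injured rats. Its log2 fold change was 0.40 in IC, 0.41 in IS and 0.56 in IS-HA, with adjusted p of 0.279, 0.189 and 0.105. Pdgfra is also made by fibroblasts and Cspg4 by pericytes, and markers of both cell types moved with injury. The 10 fibroblast markers summed to 44.4 and 61.7 TPM in Normal and to 206 to 326 TPM in IS, where 8 of the 9 tested were higher. The 9 pericyte and smooth muscle markers found summed to 191 and 207 TPM in Normal and to 1004 to 1364 TPM in IS, where 4 were higher and 1 lower. That sum was mostly Tagln, a gene of contractile cells (mean 51.1 TPM in Normal and 918 TPM in IS), and Anpep (3.14 and 106 TPM). Des (log2 fold change 3.56, adjusted p = 0.00157) and Kcnj8 (1.53, adjusted p = 0.00582) were the other genes called higher. The pericyte gene Rgs5 fell by 1.83 on the log2 scale (adjusted p = 0.00183), and Acta2, Notch3, Abcc9 and Myh11 were not called. No marker of either list was at 0 in all rats of a group, and their part in Pdgfra and Cspg4 was not tested.

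The lineage transcription factors Olig1 and Olig2 had higher means in each injured group than in Normal, and Olig2 rose in IS-HA against Normal. Olig2 (ENSRNOG00000028658), which is required for oligodendrocytes to form, was at 24.2 and 27.2 TPM in Normal, 32.2, 48.3 and 30.8 TPM in IC and 36.4, 33.4 and 26.0 TPM in IS replicates 2, 3 and 4. In IS-HA it was at 36.6, 35.6 and 44.9 TPM, and all IC and IS-HA rats lay above Normal. The log2 fold change in IS-HA against Normal was 0.59 (SE 0.20, adjusted p = 0.0438), in IC 0.47 (SE 0.20, adjusted p = 0.124) and in IS 0.32 (SE 0.20, adjusted p = 0.193). The Olig2 call was lost without either Normal rat, IC replicate 4, IS replicate 2 or 3, or IS-HA replicate 2 or 3, with adjusted p from 0.0569 to 0.189, and with only the IS-HA and Normal rats fitted (adjusted p = 0.0979).

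Olig1 (ENSRNOG00000028648), the neighbouring gene, measured 243 and 218 TPM in Normal and a narrow 371, 355 and 355 TPM in IS-HA. IC rats were at 237, 367 and 276 TPM and IS rats at 326, 365 and 243 TPM in replicates 2, 3 and 4. The log2 fold change of 0.64 in IS-HA against Normal missed the threshold (SE 0.23, adjusted p = 0.0583). It passed with library size alone as the scaling (0.76, adjusted p = 0.0303), by the Wald test of DESeq2 (0.60, adjusted p = 0.0367) and by voom (0.53, adjusted p = 0.0369). Sox10 (ENSRNOG00000011305), which drives myelin genes together with Myrf, was at 115 and 107 TPM in Normal, 96.5, 130 and 86.1 TPM in IC, 95.4, 94.9 and 85.3 TPM in IS and 111, 87.9 and 119 TPM in IS-HA. Its difference from Normal was -0.16 in IC, -0.26 in IS (95% interval -0.63 to 0.11, adjusted p = 0.213) and -0.09 in IS-HA, or 0.04 in IS-HA with library size alone as the scaling.

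Tcf7l2 (ENSRNOG00000049232), the factor through which Wnt signals act in oligodendrocytes that begin to differentiate, rose in IS-HA against Normal with a log2 fold change of 1.27 (SE 0.40, adjusted p = 0.0340). It stood at 7.24 and 10.9 TPM in Normal, 7.83, 14.0 and 7.57 TPM in IC replicates 2, 3 and 4, and at 9.28, 9.11 and 9.21 TPM in IS. In IS-HA it was at 21.8 TPM in replicate 1, 9.79 TPM in replicate 2 and 36.8 TPM in replicate 3. The rise rested on 2 of the 3 rats, and replicate 2 lay within the range of the other groups. The value without IS-HA replicate 3 was 0.80 (adjusted p = 0.0965). The call was also lost without Normal replicate 1, Normal replicate 3 or IS replicate 3, with adjusted p of 0.179, 0.109 and 0.0514, and with only the IS-HA and Normal rats fitted (adjusted p = 0.118). The 2 higher and 0 lower calls in IS-HA against Normal stand beside 19.5% of tested genes called higher and 12.1% called lower, so the share of members called higher is close to the background.

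Tcf7l2 is also a gene of thalamic neurons, and levels of some genes of those neurons, but not of all that were read, were high in the same IS-HA rats. Slc17a6, the vesicular glutamate transporter of the thalamus, was at 18.5, 8.03 and 34.0 TPM in IS-HA replicates 1, 2 and 3, against 1.67 and 10.3 TPM in Normal and 0.0703 to 4.69 TPM in IC and IS. Shox2, a thalamic transcription factor gene, was at 10.3, 0.115 and 12.3 TPM in the same IS-HA rats and at 5.43 TPM in Normal replicate 3. A list of 13 thalamic genes, written after the Tcf7l2 values were seen, summed to 194, 127 and 290.0 TPM in IS-HA replicates 1, 2 and 3, and to between 68.0 and 130 TPM in the other rats. IS-HA replicates 1 and 3 both lay above every other rat in 6 of the 13 genes. Others differed, as Calb2 was at 37.6 TPM in IS-HA replicate 2, above replicate 1 and below the 63.4 TPM of replicate 3, and Rgs16 was as high in IS (43.6 to 67.3 TPM) as in IS-HA (34.0 to 65.7 TPM). Of its 11 tested genes, 3 (Prkcd, Calb2 and Rgs16) were higher and 0 lower in IS-HA against Normal. Over all tested genes, 19.5% were called higher and 12.1% lower in that comparison. In IS against Normal 1 of the 11 was higher and 3 were lower, beside 24.8% and 24.2% of all tested genes. These counts are a description and no result about thalamic genes. The part of thalamic tissue in the Tcf7l2 rise was not tested.

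In IC against Normal, 0 of the 10 genes were called in either direction, beside 13% of all tested genes called higher and 4.64% called lower. The unadjusted p of edgeR's test was under 0.05 for 1 of them, Olig2, at an adjusted p of 0.124. The 95% intervals of Pdgfra (-0.13 to 1.08), Bcas1 (-0.22 to 1.09) and Enpp6 (-1.20 to 0.27) included a change of 1 on the log2 scale, and those of the other genes stayed within it.

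**Figure D2:**
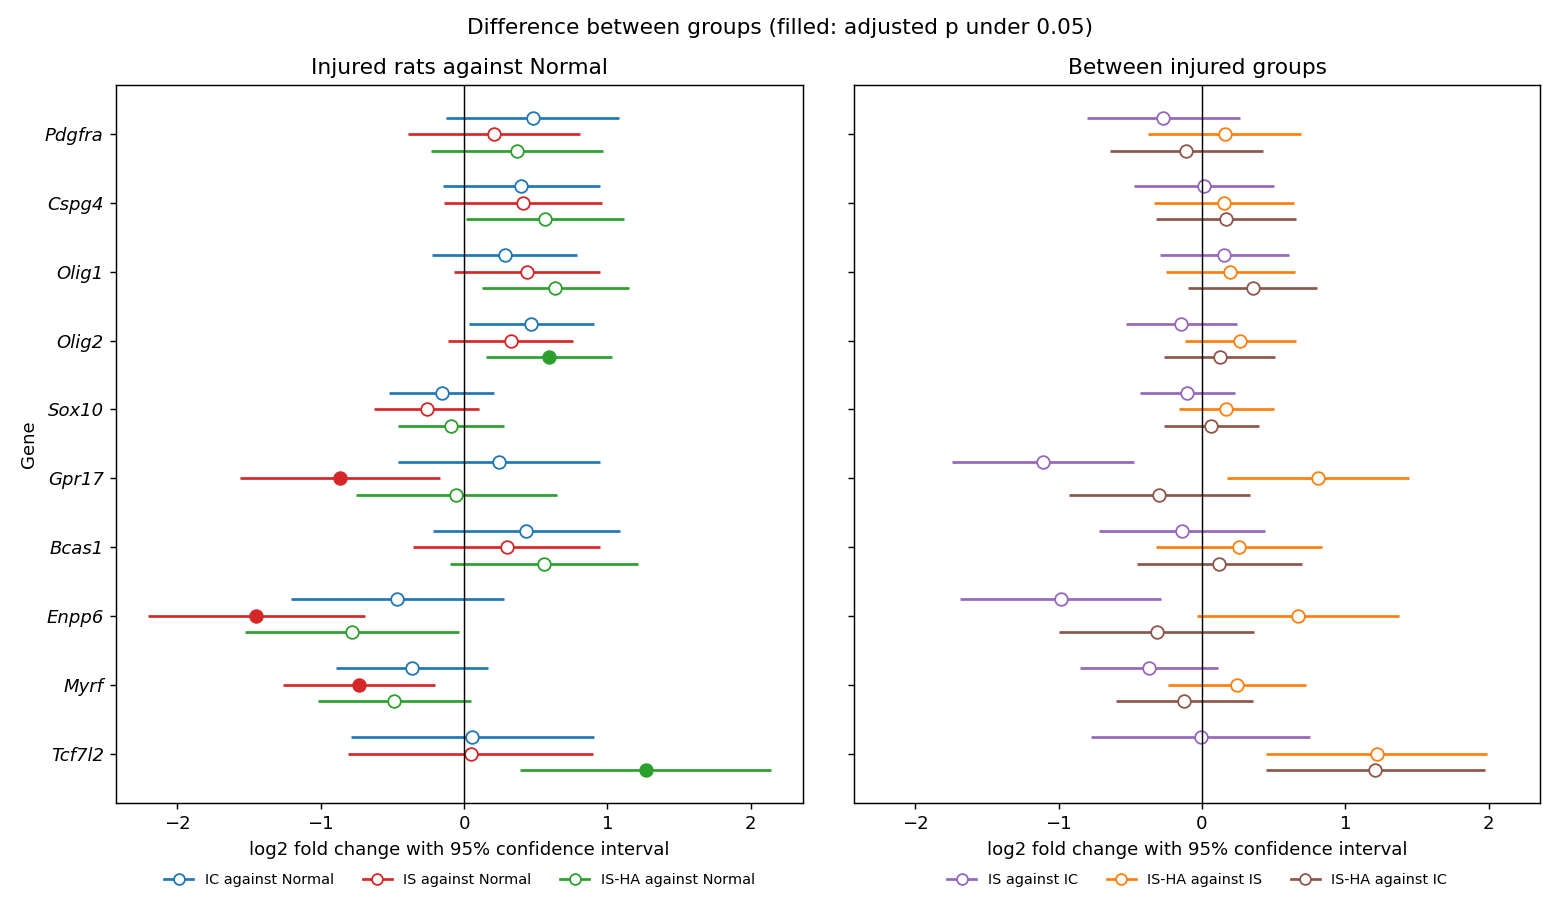
Log2 fold change (horizontal axes) with its 95% interval for each gene, against Normal on the left and between the injured groups on the right, with filled points for an adjusted p under 0.05. Filled points are Enpp6, Myrf and Gpr17 in IS and Olig2 and Tcf7l2 in IS-HA, and no point on the right is filled.

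Between the injured groups no gene of the set was called. In IS against IC, 0% of all tested genes were called higher and 0% lower by edgeR, although 3498 genes had an unadjusted p under 0.05. Gpr17 had a log2 fold change of -1.11 (SE 0.29, unadjusted p = 0.00281, adjusted p = 0.147) and Enpp6 one of -0.99 (SE 0.32, unadjusted p = 0.0101, adjusted p = 0.160). In both genes all 3 IS rats lay below all 3 IC rats, an arrangement found for 18.0% of tested genes, and the exact permutation test on TPM gave p = 0.1, the smallest that 3 against 3 allows. With IS-HA replicate 2 left out of the fit, Gpr17 (adjusted p = 0.0224) and Enpp6 (adjusted p = 0.0262) passed the threshold at nearly unchanged log2 fold changes of -1.11 and -0.99. IS-HA replicate 2 is in neither group, so leaving it out changed the estimate of the spread and the adjustment, and hardly the differences. The Wald test of DESeq2 also called Gpr17, with -1.10 (adjusted p = 0.0160). The shares of all tested genes called in these alternative fits are not given here, so these calls have no background beside them.

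Hematoma aspiration was compared with severe hemorrhage to see which genes differed after the aspiration procedure. The IS-HA rats were also anesthetized again at 6 h and had a catheter passed through the hematoma. No group had the catheter without aspiration, so its effect cannot be told apart from that of withdrawing blood. In IS-HA against IS, 0.00635% of tested genes (1 gene) were called higher and 0% lower, and none of the 10 genes was among them. At an unadjusted p under 0.05 there were 1408 genes. Gpr17 was higher by 0.81 on the log2 scale (95% interval 0.18 to 1.45, adjusted p = 0.540), Tcf7l2 by 1.22 (0.45 to 1.99, adjusted p = 0.499), Enpp6 by 0.67 (-0.04 to 1.37, adjusted p = 0.563) and Myrf by 0.25 (-0.24 to 0.73, adjusted p = 0.721). IS-HA replicates 1 and 3 lay above every IS rat in Gpr17, Enpp6 and Myrf, whereas replicate 2 lay below every IS rat in Enpp6 and Myrf and within their range in Gpr17. Without IS-HA replicate 2, Gpr17 (1.07, adjusted p = 0.0410) and Tcf7l2 (1.51, adjusted p = 0.0366) passed the threshold. The share of all tested genes called in that fit is likewise not given here. In IS-HA against IC, 0% of tested genes were called in either direction, with 782 at an unadjusted p under 0.05, and the largest difference among the 10 genes was that of Tcf7l2 (1.21, SE 0.35, adjusted p = 0.841).

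The IS comparisons share rats, as do the comparisons with Normal, so their values are given side by side and not as independent results. With 0 or 1 gene called over all genes, a call between injured groups needs a smaller unadjusted p than one against Normal, where up to 7710 genes were called in IS. The calls and the misses are therefore not a measure of which comparison held the larger difference.

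To describe the genes relative to the lineage as a whole, each TPM was divided by that of Sox10 in the same rat. Relative to Sox10, Gpr17 was at 0.827 and 0.924 in Normal, at 1.20, 1.15 and 1.11 in IC replicates 2, 3 and 4, at 0.685, 0.648 and 0.383 in IS and at 1.08, 0.542 and 1.05 in IS-HA replicates 1, 2 and 3. All IC rats lay above Normal and all IS rats below it. The share of all tested genes that separate in this way per Sox10 was not computed. By TPM alone, 34.6% of tested genes lay above Normal in all IC rats and 35.2% below it in all IS rats. Enpp6 relative to Sox10 averaged 0.818 of the Normal mean in IC, 0.436 in IS and 0.611 in IS-HA, and Myrf 0.866, 0.718 and 0.757. Pdgfra, Cspg4, Olig1, Olig2 and Bcas1 averaged between 1.36 and 1.66 times the Normal mean in every injured group. The ratios carry no test. Sox10 itself was not called in any comparison, but its TPM was below both Normal rats in every IS rat, which raises the ratios in IS.

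**Figure D3:**
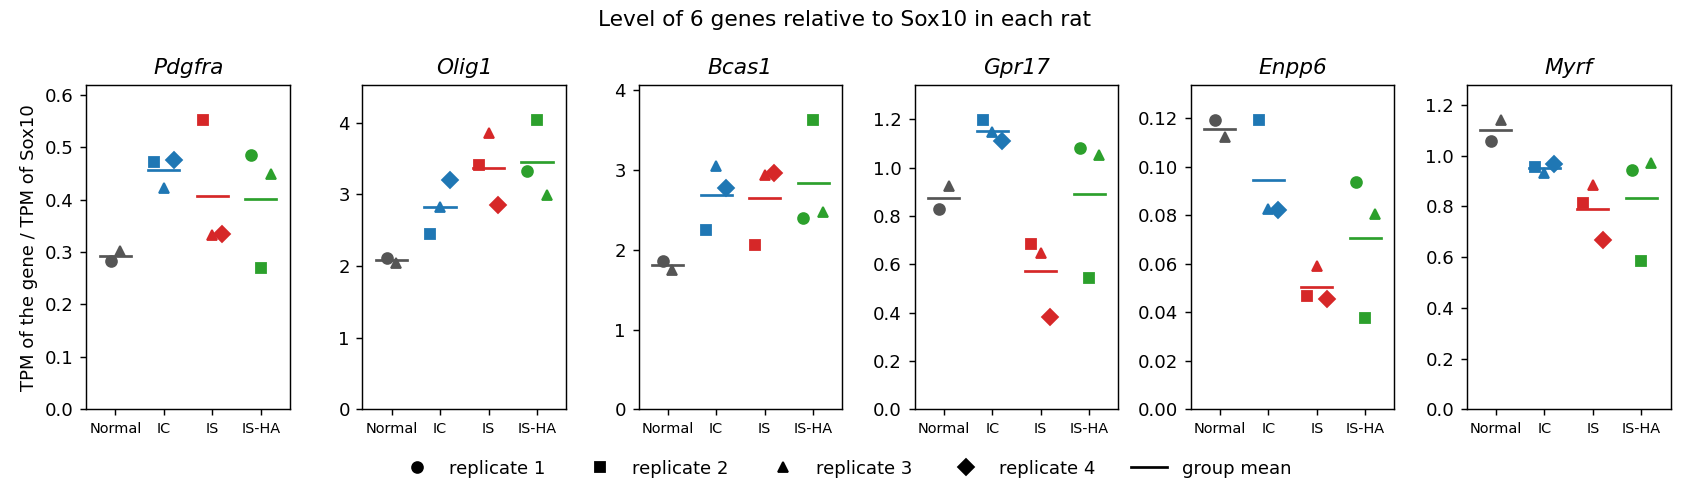
TPM of 6 genes divided by the TPM of Sox10 in the same rat (vertical axes, linear from 0, no unit), by group, with a symbol for each replicate number and a line for the group mean. Gpr17 and Enpp6 lie lowest in IS and in IS-HA replicate 2, while Olig1 and Bcas1 lie above both Normal rats in all 9 injured rats. The share of all genes that separate so per Sox10 was not computed.

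Over the 11 rats, some pairs of the genes varied together. Pearson's r of log2 CPM is given as a description only, since all rats enter every r and the groups differ, and no grouping was computed. Enpp6 and Myrf gave r = 0.92, Gpr17 and Enpp6 0.83, and Gpr17 and Myrf 0.81. Among the genes with higher means after injury, Cspg4 and Olig2 gave 0.84, Olig1 and Olig2 0.79, Olig1 and Bcas1 0.75 and Olig2 and Bcas1 0.71. Pdgfra, whose mean was also higher in every injured group, varied less with these genes, at 0.39 with Cspg4 and with Olig2, 0.07 with Olig1 and -0.14 with Bcas1. Its highest r within the set was 0.61, with Gpr17, and Sox10 gave 0.64 with Myrf. Bcas1 and Gpr17, both of the committed stage, gave -0.11, and Olig1 and Enpp6 -0.53. The tested genes most like Enpp6 outside the set were Sec14l5, Kif26a and AC133270.1 (r of 0.97, 0.96 and 0.96). Those most like Gpr17 were 2010315B03Rikl, Lrrc75b and Cd81 (0.97, 0.95 and 0.95), and those most like Myrf were Usp54, Pcsk6 and Adamts20 (0.97, 0.97 and 0.96). For Olig2 they were Myt1, Abtb2 and Traf4 (0.91, 0.89 and 0.89), and for Bcas1 Trh, Scd3 and Tsnaxip1 (0.96, 0.94 and 0.90).

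Other genes of the same pathways were read as lists that do not contain the 10 genes. Over all tested genes, the shares called higher and lower were 24.8% and 24.2% in IS against Normal. Against Normal they were 13% and 4.64% in IC and 19.5% and 12.1% in IS-HA, and the counts of each list stand beside these shares. The list with the most lower calls was that of mature myelin genes, which encode the proteins of the finished sheath. In IS against Normal 9 of its 12 genes were lower and 0 higher, and the median log2 fold change was -0.97 beside 0.02 over all tested genes. Opalin had -2.0 (SE 0.29, adjusted p = 0.000414), Ermn -2.01 (SE 0.37, adjusted p = 0.00169) and Mog -1.07 (SE 0.21, adjusted p = 0.00214). In IC and in IS-HA against Normal 2 and 3 of the 12 were lower and 0 higher, with medians of -0.63 and -0.61. Summed TPM of the list was 18975 and 19700.2 in Normal and 6592 to 11171 in IS.

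The lineage transcription factor list, regulators other than those in the set, held 17 tested genes, of which 2 were higher and 4 lower in IS against Normal. Hdac1, a histone deacetylase gene (1.63, SE 0.22, adjusted p = 0.000283), and Nkx2-2, a homeobox gene of the lineage (1.29, SE 0.23, adjusted p = 0.00144), rose, and both were also higher in IC and IS-HA against Normal. The repressor gene Zfp536 (-1.50, SE 0.30, adjusted p = 0.00254) and the chromatin remodeller gene Chd8 (-0.86, SE 0.18, adjusted p = 0.00280) fell. In IC against Normal 2 were higher and 1 lower, and in IS-HA against Normal 3 were higher and 2 lower. Hdac1 is expressed by most cells of the tissue, microglia included.

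Among 15 further precursor markers, 2 were higher and 3 lower in IS against Normal. The matrix protein gene Tnr fell by 3.75 (SE 0.48, adjusted p = 0.000233) and the xylosyltransferase gene Xylt1 fell by 2.16 (SE 0.53, adjusted p = 0.00718) on the log2 scale, whereas the proteoglycan gene Vcan rose by 1.77 (SE 0.29, adjusted p = 0.000886) and the sulfatase gene Sulf2 by 0.92 (SE 0.23, adjusted p = 0.00793). The median of the 15 was -0.59. In IC 1 of the 15 was higher and 0 lower, and in IS-HA 4 were higher and 2 lower. Tnr is also made by neurons, of whose 10 markers 9 were lower in IS against Normal, with summed levels of 3835 and 4911 TPM in Normal and 746 to 2191 TPM in IS, and the part of neurons in the Tnr value was not tested.

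Of 14 genes of committed precursors and newly formed oligodendrocytes, the stage of Gpr17 and Enpp6, 2 were higher and 3 lower in IS against Normal. Ust (-2.55, SE 0.30, adjusted p = 0.000129), Nfasc (-1.49, SE 0.24, adjusted p = 0.000734) and Tmem163 (-2.0, SE 0.34, adjusted p = 0.000998) fell, and Fam107b rose (1.41, SE 0.23, adjusted p = 0.000795). Ust encodes a sulfotransferase, Nfasc an adhesion molecule of the node of Ranvier that neurons also make, and Tmem163 a zinc transporter. The median of the 14, 0.07, was close to that of all genes. In IC 1 was higher and 3 lower, beside 13% and 4.64% of all tested genes, so the share called lower was above that of all genes. In IS-HA 1 was higher and 2 lower, beside 19.5% and 12.1%.

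The list called differentiation brakes holds Id genes, Lingo1, Adgrg1 and components and targets of the BMP, Notch and Wnt pathways. These pathways can hold precursors back from differentiating, but not every listed gene is itself a brake. In IS against Normal 5 of its 17 genes were higher and 3 lower. The ligand gene Bmp7 (2.24, SE 0.49, adjusted p = 0.00399) and Id1, a BMP target (1.41, SE 0.34, adjusted p = 0.00672), rose. The Notch target gene Hes5 (-1.74, SE 0.36, adjusted p = 0.00275) and Axin2, a Wnt target (-1.56, SE 0.39, adjusted p = 0.00770), fell. The median log2 fold change of the 17 was 0.17. In IC 1 of the 17 was higher and 0 lower, and in IS-HA 2 were higher and 3 lower. These genes are shared with astrocytes and vascular cells, and the source of the signal was not tested.

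The list of mitogens and their receptors held 10 tested genes. In IS against Normal the growth factor gene Igf1 (2.74, SE 0.57, adjusted p = 0.00294) and the second PDGF receptor gene Pdgfrb (0.68, SE 0.20, adjusted p = 0.0149), which pericytes express, rose. The receptor genes Fgfr2 (-0.74, SE 0.20, adjusted p = 0.0113) and Igf1r (-1.05, SE 0.37, adjusted p = 0.0376) fell, and the other 6 were not called. Igf1 was the only gene of this list called in IC (2.79, adjusted p = 0.00684) and in IS-HA (3.54, adjusted p = 0.00164) against Normal, and it is also made by microglia and macrophages. All 10 proliferation markers were higher in each injured group, with a median of 3.56 in IS, and which cells divided was not measured. No gene of the 6 lists was called in IS against IC, IS-HA against IS or IS-HA against IC.

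**Figure D4:**
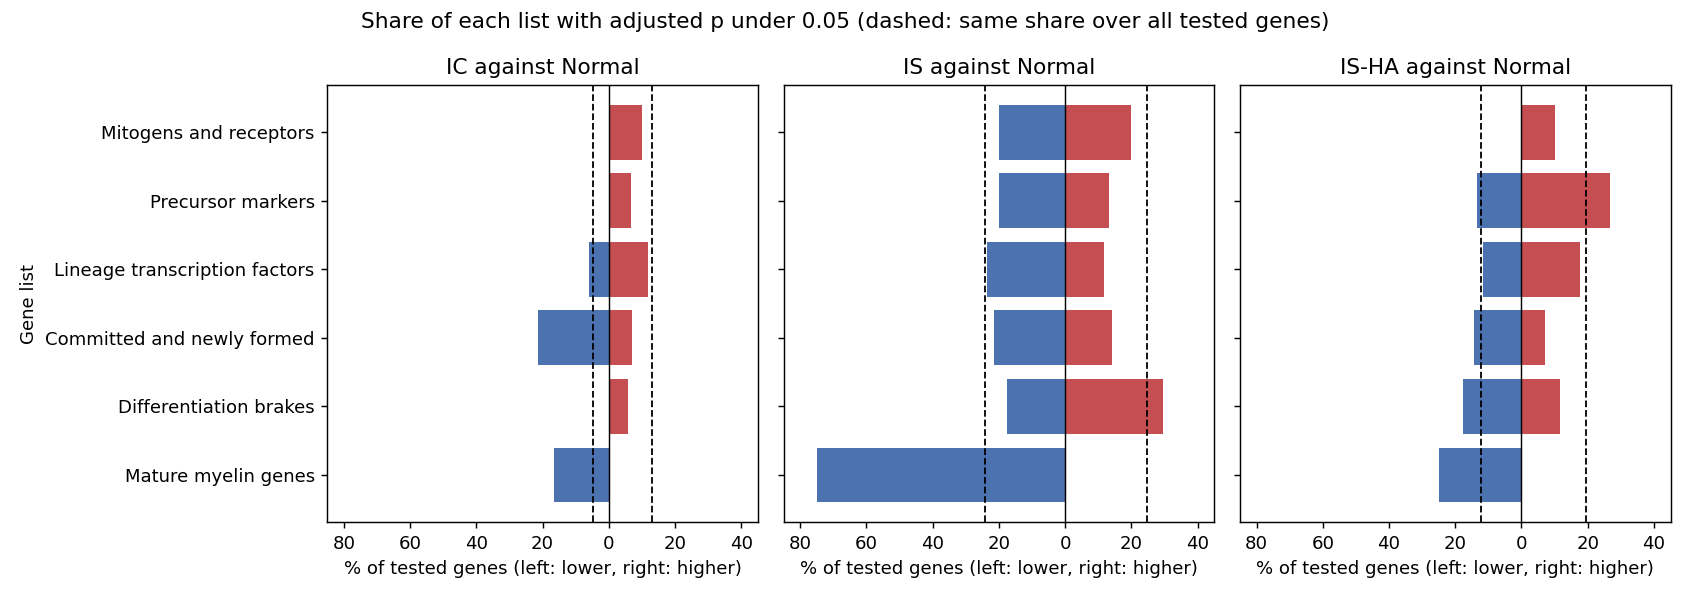
Share of the tested genes of each of the 6 lists called higher (right of 0) or lower (left of 0) against Normal, in percent, with dashed lines for the same shares over all tested genes. In IS the mature myelin genes reach 9 of 12 lower, past the 24.2% line, while the other lists stay under both lines except the brakes, of which 5 of 17 were higher.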

How the data were processed

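Poly(A) RNA libraries of the striatum of 11 rats were sequenced as paired-end reads. Per the submitters' processing notes, fastp 0.20.0, FastQC 0.11.9, HISAT2 2.1.0, SAMtools 1.9, featureCounts and DESeq2 were used with build mRatBN7.2, and the annotation version and strand setting are not given in the sources used here. The authors deposited whole-number counts per gene, without normalization, and TPM per rat. Columns were matched to rats by label and 0 were left unmatched. The members and all lists were chosen with earlier results of these data known, and the list of thalamic genes was added after the values were seen.

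Counts were filtered with filterByExpr, normalized by TMM and tested by the quasi-likelihood F test of edgeR 4.0.16 (R 4.3.3), fitting all 4 groups at once and adjusting p by Benjamini-Hochberg across 15742 genes. A standard error is the size of the log2 fold change over the root of its F statistic. P-values measure the spread between rats. The smallest library puts the floor of 3 counts at 0.448 CPM, and floors and intervals of counts cover counting error only. The tests were tried on simulated data with known changes and the same spread for all genes. Most log2 changes of 2 between IS and Normal were recovered there, but none of 1. The simulation changed 200 genes, whereas 7710 were called in IS against Normal, so p was adjusted under other conditions. In the data, Myrf (-0.73) and Gpr17 (-0.87) were called in that comparison. The simulation therefore does not tell which size of difference the tests can call in these data. A difference that was not called may still be present. Named are all members, the 3 tested genes most correlated with each over the rats (log2 CPM with prior count 2), and up to 4 genes per list with the smallest p in IS against Normal. One gene that this rule would name is not reported here. Exact permutation tests (two-sided) were run on TPM, and their smallest p is 0.1 with 3 against 3 rats and 0.2 against the 2 Normal rats. Alternatives were DESeq2 1.42.0, its size factors, library size alone, other filters, limma 3.58.1 on log2(TPM + 1), voom with quality weights, the groups compared alone, a replicate block and each rat left out. Plots were drawn with matplotlib 3.10.9.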

Additional observations from a re-analysis of the deposited data

How the results depend on the processing

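The 5 called differences kept their direction under all 21 alternatives. Enpp6 in IS against Normal passed the threshold in 20 (log2 fold change -1.61 to -0.93, adjusted p 0.000257 to 0.131), Myrf in 14 (-0.84 to -0.39, 0.00450 to 0.304) and Gpr17 in 13 (-0.99 to -0.41, 0.00766 to 0.385). In IS-HA against Normal, Tcf7l2 passed in 15 (0.80 to 1.56, 0.00140 to 0.179) and Olig2 in 9 (0.53 to 0.72, 0.0153 to 0.189). The calls rest on 2 Normal rats, and Enpp6 rests on as few as 27 counts in a rat.

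Counts of the 10 genes called moved as follows, and the causes were not tested. The count lower in IS against Normal was 3 as reported, 1 with library size alone, limma on log2(TPM + 1) or a log2 fold change of at least 1 asked as well, and 1 to 3 with a rat left out. The count higher in IS-HA against Normal was 2 as reported, 1 with DESeq2's size factors, no filter on counts or that fold asked as well, 0 with only the groups compared or limma on log2(TPM + 1), 3 (Olig1 as well) with library size alone or DESeq2's Wald test, 5 with voom, and 0 to 2 with a rat left out. With only the groups compared 1 gene (Pdgfra) was higher in IC against Normal, and with voom 1 gene (Olig1) was higher in IS. In IS against IC 1 gene was lower by DESeq2's Wald test, 2 by voom and 0 to 2 with a rat left out. In IS-HA against IS 2 genes were higher by voom and 0 to 2 with a rat left out. Counts over all tested genes are given below for library size alone against Normal. For the other alternative fits they are not given here, so those member counts have no background beside them.

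The replicate numbers are shared by different animals (same-numbered IC and IS rats gave r from -0.34 to 0.36 in their deviations from the group means), so the fit with a replicate block stands here only. It called 0 genes lower in IS against Normal and 1 higher in IS-HA against Normal, and it turned the sign of Pdgfra in IS-HA against IS (-0.052), Gpr17 in IS-HA against Normal (0.071), Enpp6 in IC against Normal (0.080) and Tcf7l2 in IS against IC (0.064).

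Among uncalled differences, 17 changed sign under some alternative, all with a reported size of at most 0.46 and no adjusted p below 0.563. With library size alone, which shifted the median of all genes by 0.14, 0.15 and 0.18 in IC, IS and IS-HA against Normal, these were Cspg4 in IS against IC (-0.00066), Sox10 (0.039) and Gpr17 (0.093) in IS-HA against Normal. That scaling called 4594 genes higher and 2851 lower in IS against Normal, 2626 and 295 in IC and 3815 and 1104 in IS-HA, against 3908 and 3802, 2040 and 730, and 3067 and 1898 as reported. Cspg4 in IS against IC also turned without a filter on counts (-0.0012) and by limma on log2(TPM + 1) (-0.041). Voom turned Pdgfra (0.11) and Myrf (0.12) in IS-HA against IC, Gpr17 in IS-HA against Normal (0.16), and Tcf7l2 in IC against Normal (-0.057) and in IS against IC (0.097). The last was 0.0069 with DESeq2's size factors and 0.0085 by its Wald test. With a rat left out, ranges that crossed 0 were, against Normal, Pdgfra in IS (-0.048 to 0.33), Sox10 (-0.21 to 0.027) and Gpr17 (-0.23 to 0.20) in IS-HA, and Tcf7l2 in IC (-0.24 to 0.30) and IS (-0.17 to 0.29). In IS against IC they were Cspg4 (-0.14 to 0.23), Olig2 (-0.25 to 0.045), Sox10 (-0.17 to 0.042), Bcas1 (-0.31 to 0.12) and Tcf7l2 (-0.16 to 0.29). In IS-HA they were Cspg4 against IS (-0.020 to 0.26) and, against IC, Pdgfra (-0.24 to 0.11), Sox10 (-0.0015 to 0.21), Bcas1 (-0.090 to 0.38) and Myrf (-0.28 to 0.081).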

Other observations

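For the members not described above in this way, the 3 tested genes with the highest Pearson's r of log2 CPM over the 11 rats were Septin11, Tent5a and Cav2 for Pdgfra (0.96, 0.95 and 0.95), Irx3, Afap1l2 and ENSRNOG00000069159 for Cspg4 (0.87, 0.85 and 0.84), and Ugp2, Gkap1 and Gsn for Olig1 (0.94, 0.91 and 0.90). They were Spsb4, LOC120102485 and Wdr59 for Sox10 (0.87, 0.86 and 0.86), and Nhlh2, Fgf10 and Kcp for Tcf7l2 (0.92, 0.89 and 0.87). Within a rat, the ratio of Olig1 to Olig2 TPM, 2 neighbouring genes, ranged from 7.36 to 10.9 with overlapping groups. The ratio of Gpr17 to Pdgfra was 2.92 and 3.07 in Normal, 2.33 to 2.71 in IC, 1.15 to 1.95 in IS and 2.01 to 2.35 in IS-HA, so IC and IS-HA overlapped and IS lay below all other rats. That ratio was formed after the values were seen and carries no test. Markers of Schwann cells, which also use Sox10, summed to between 13.1 and 22.8 TPM in each rat, and 1 of the 6, Ncmap, was at 0 in every rat of each group. The sum hides calls in both directions among the 5 tested. In IS against Normal Gldn (2.64, adjusted p = 0.000273) and Scn7a (2.70, adjusted p = 0.00460) were higher, and Cdh19 was lower (-1.73, adjusted p = 0.0179).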
